A study of Mus musculus with 6 samples.

Results

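The genes described are 10 genes of cholesterol efflux and of the liver X receptor (LXR) system, matched by gene symbol: Abca1, Abcg1, Scarb1, Apoe, Pltp, Npc1, Npc2, Soat1, Nr1h3 and Nr1h2. The set was chosen with earlier results of these data known. They are 10 of the 54532 genes in the deposited table, and all 10 had enough counts to be tested. RNA was sequenced from eWAT, the white fat depot attached to the epididymis, of 3 cachectic and 3 control mice, all of strain C57BL/6 and, per the study's methods, male and 6 to 10 weeks old when obtained. The cachectic mice had been given 5000000 Lewis lung carcinoma (LLC) cells, which are a cell line from a lung tumor of this strain, under the skin, and tissue was harvested on day 21. Cachexia was defined in that model by a loss of more than 20% of body weight, and the control mice carried no genetic change or agent that the labels name. The model is 1 tumor line in 1 strain at 1 time point, with no group that bore a tumor without cachexia, so tumor and weight loss cannot be told apart. The replicates are labelled as separate samples, and the p-values measure the spread between them.

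Cells cannot break the sterol ring down, so surplus cholesterol has to be exported or stored as ester. LXRα and LXRβ are nuclear receptors that sense oxysterols, oxidized forms of cholesterol, and together with a retinoid X receptor (RXR) they turn on genes of cholesterol export, lipid carriage and fatty acid synthesis. A different regulator, SREBP2, turns on cholesterol synthesis and uptake when cell cholesterol is low. Adipocytes keep much of the body's free cholesterol in and around the lipid droplet, and macrophages of fat tissue also export it, so in whole tissue these genes are read from several cell types at once. In such bulk samples fewer cells of a type and less RNA per cell cannot be told apart.

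ABCA1, the transporter that loads cholesterol and phospholipid onto lipid-poor apolipoprotein A-I, is the textbook LXR target, and its promoter is shown because it was the only one among those searched that held any of the motifs sought. Promoters from RefSeq on GRCm38.p6, from 250 bases before to 50 after a gene's start, were matched for 7 of the 10 genes, the others being Abcg1, Scarb1 and Npc1. For Abca1 this is chr4:53159846-53160145 on the minus strand, printed 5′ to 3′, with the letters that matched a motif in capitals.
Abca1 promoter: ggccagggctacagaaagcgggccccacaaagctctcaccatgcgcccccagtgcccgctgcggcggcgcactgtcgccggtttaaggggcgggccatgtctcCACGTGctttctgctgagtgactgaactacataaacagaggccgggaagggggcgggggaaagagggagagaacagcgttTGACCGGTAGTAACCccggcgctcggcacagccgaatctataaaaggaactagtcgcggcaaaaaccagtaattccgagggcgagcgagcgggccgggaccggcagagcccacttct
The capitals nearer the start, at positions -67 to -53 from it, are a direct repeat that reads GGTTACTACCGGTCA on the other strand. It matched a looser form of the LXR element DR4, GGTNA repeated in the same direction after 5 bases of any kind. The capitals farther out, at -147 to -142, are an E-box, CACGTG, which reads alike on both strands. The stricter DR4, AGGTCA repeated after 4 bases of any kind, and the core of the sterol regulatory element, TCACNCCAC, were not in the windows of these 7 genes on either strand. Of 32851 mouse promoters of this length, 0.718% held the looser DR4, 7.15% the E-box, 0.0152% the stricter DR4 and 1.24% the sterol element core. A match of letters is a description of the sequence, and binding was not measured.

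Expression was upregulated in cachectic eWAT for Abcg1, Npc1 and Scarb1, by 6.32-fold, 3.20-fold and 2.62-fold, and no gene of the 10 was downregulated past the threshold (adjusted p under 0.05 in edgeR's quasi-likelihood test, Benjamini-Hochberg over 16003 genes). Of all genes tested, 17.6% passed this threshold, 9.0% higher and 8.63% lower, against 3 higher and 0 lower among the 10. The groups did not overlap for 6 of the 10 genes, 5 of them higher and 1 lower in cachectic mice, and they did not overlap for 40.5% of all genes tested. Log2 fold changes were positive for 8 of the 10, with a median of 0.52, while the median over all tested genes was -0.003. Levels are given as CPM, counts scaled to the normalized library size, from libraries of 14928766 to 18855546 counts, and 3 mice against 3 allow no exact permutation p-value below 0.1 (two-sided).

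**Figure D1:**
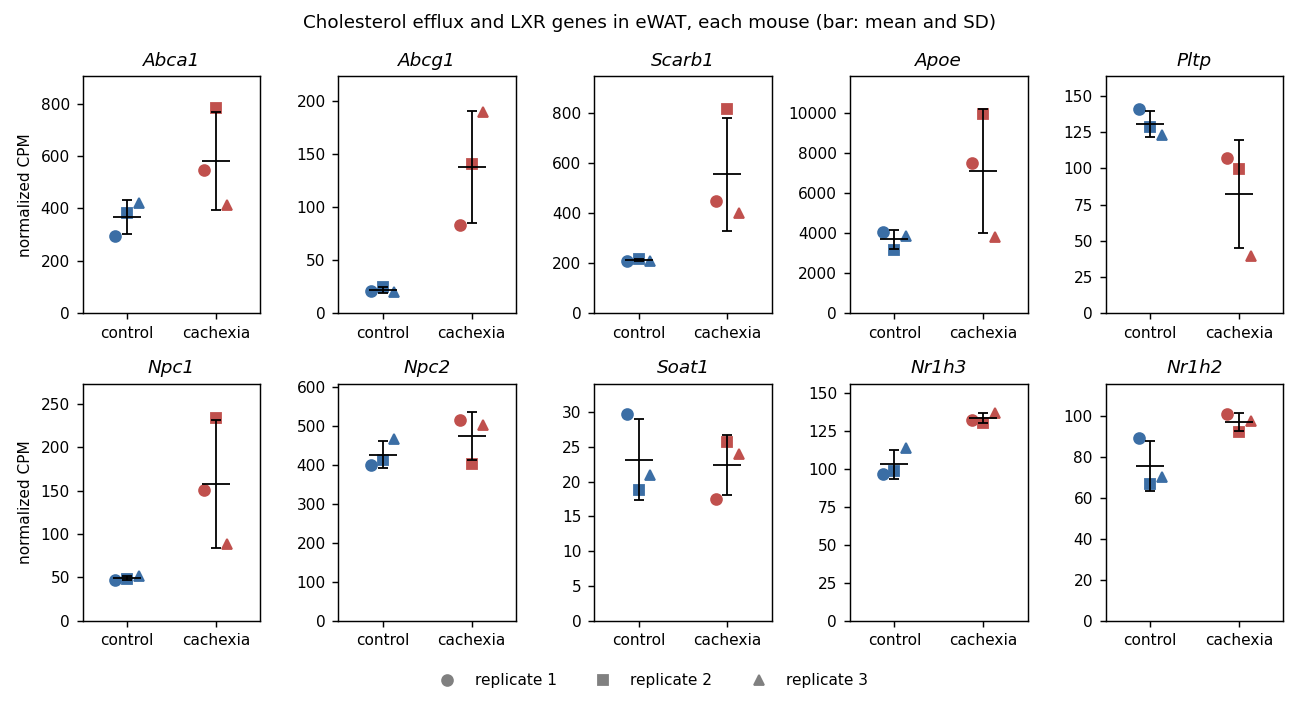
Normalized CPM of each gene (y axis, from 0) in the 3 control mice (blue) and 3 cachectic mice (red), with the marker shape giving the replicate number and black bars the mean and SD. Cachectic mice lie above all control mice for Abcg1, Scarb1, Npc1, Nr1h3 and Nr1h2 and below them for Pltp, and cachexia replicate 3 falls back among the controls for Abca1 and Apoe.

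Abcg1, which encodes the transporter that passes cholesterol on to formed HDL particles, had the largest change of the 10. In the order of replicates 1, 2 and 3, which is kept for all values that follow, control mice had 20.8, 24.9 and 19.6 CPM and cachectic mice 83.4, 140.0 and 189 CPM. Even the lowest cachectic mouse was thus well above the highest control. The mean rose from 21.8 ± 2.76 to 138 ± 52.9 CPM (SD, n = 3 each), a log2 fold change of 2.66 (standard error 0.29, 95% interval 1.99 to 3.33, adjusted p = 0.0025 in edgeR with Benjamini-Hochberg adjustment). The gene lies on chromosome 17 from 31057698 to 31115777, plus strand, in the coordinates of the deposited files. It passed the threshold under each of the 16 other settings tried.

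Abca1 (chromosome 4, 53030787 to 53159895, minus strand) gave a less even picture. Its level was 294, 383 and 420.2 CPM in control mice and 546, 783 and 413 CPM in cachectic mice. Cachexia replicate 3 lay below control replicate 3, so the groups overlap, while the other cachectic mice were above all controls. The means were 366 ± 64.6 and 581 ± 188 CPM (SD, n = 3 each). The log2 fold change of 0.67 (standard error 0.26, 95% interval 0.06 to 1.27) did not pass the threshold in edgeR (Benjamini-Hochberg adjusted p = 0.116), and the exact permutation p-value was 0.2 (two-sided). DESeq2 placed it past the threshold, with an adjusted p of 0.0479. Without cachexia replicate 2 the log2 fold change in edgeR was 0.39.

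Scarb1 encodes SR-BI, the HDL receptor that lets cholesterol pass between HDL and the cell in either direction. The control mice were close together at 209, 217 and 209 CPM, and the cachectic mice were at 449.7, 815 and 400.3 CPM. All 3 cachectic mice were above all controls, with replicate 2 far above the other two. From 212 ± 4.91 to 555 ± 226 CPM (SD, n = 3 each) the log2 fold change was 1.39 (standard error 0.27, 95% interval 0.76 to 2.02, edgeR's Benjamini-Hochberg adjusted p = 0.0147). Without control replicate 2 or control replicate 3 the adjusted p in edgeR was 0.0557 and 0.0701, with log2 fold changes of 1.41 and 1.38. Scarb1 lies on chromosome 5 from 125277087 to 125341094, minus strand.

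Neither of the extracellular carriers passed the threshold. Apoe, which encodes the apolipoprotein E that macrophages and adipocytes secrete with cholesterol, was at 4071, 3162 and 3840.3 CPM in control mice and 7525, 9986 and 3797 CPM in cachectic mice. Cachexia replicate 3 lay within the control range and the other cachectic mice were well above it. Its means were 3691 ± 472 and 7103 ± 3116 CPM (SD, n = 3 each), and the log2 fold change of 0.94 (standard error 0.37, 95% interval 0.10 to 1.79) did not pass the threshold in edgeR (Benjamini-Hochberg adjusted p = 0.113). It passed without cachexia replicate 3, with a log2 fold change of 1.25 (adjusted p = 0.0275 in edgeR), and in DESeq2 with all mice (adjusted p = 0.0173). Without cachexia replicate 2 the log2 fold change was 0.62 (adjusted p = 0.254 in edgeR). Apoe lies on chromosome 7 from 19696109 to 19699188, minus strand.

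Pltp, which encodes the phospholipid transfer protein that enlarges HDL and is a known LXR target, was the one gene whose cachectic mice lay below all controls. Its level was 141, 128 and 123 CPM in control mice and 107, 99.5 and 39.1 CPM in cachectic mice. Cachexia replicates 1 and 2 were slightly under the control range and replicate 3 was far under it. The means were 131 ± 9.14 and 82.0 ± 37.4 CPM (SD, n = 3 each), and the log2 fold change of -0.67 (standard error 0.33, 95% interval -1.44 to 0.10) did not pass the threshold (edgeR's Benjamini-Hochberg adjusted p = 0.196). It was -0.33 without cachexia replicate 3. Exons of Pltp (chromosome 2, 164839518 to 164857711, minus strand) overlap those of Ctsa on the other strand, and whether the counting used strand is not given in the sources used here. Ctsa held 16469 counts over the 6 mice against 11285 for Pltp, and its own log2 fold change was 0.14.

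Of the pair of proteins that release cholesterol from the lysosome, the gene for the membrane protein NPC1 rose and that for the soluble NPC2, which hands cholesterol to it, did not pass the threshold. Npc1 was at 47.5, 48.6 and 51.6 CPM in control mice and at 151, 234 and 88.1 CPM in cachectic mice. The controls were tightly grouped, and the cachectic mice were above them but far apart from each other. The rise from 49.2 ± 2.10 to 158 ± 73.3 CPM (SD, n = 3 each) was a log2 fold change of 1.68 (standard error 0.32, 95% interval 0.95 to 2.41, adjusted p = 0.0126 in edgeR, Benjamini-Hochberg). Without control replicate 3 the adjusted p in edgeR was 0.0562, with a log2 fold change of 1.71. Exons of Npc1 (chromosome 18, 12189693 to 12236400, minus strand) overlap those of Rmc1 on the other strand, which held 4291 counts over the 6 mice against 10449, and Rmc1 had a log2 fold change of -0.40. Npc2 (chromosome 12, 84754562 to 84773152, minus strand) was at 400.3, 412 and 465 CPM in control mice and 516, 403 and 502 CPM in cachectic mice. Its groups overlap, with a log2 fold change of 0.15 (95% interval -0.23 to 0.54).

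Soat1, whose product ACAT1 esterifies cholesterol for storage, was low in every mouse. It was at 29.8, 18.7 and 20.97 CPM in control mice and 17.5, 25.7 and 23.9 CPM in cachectic mice. The groups overlap, with control replicate 1 the highest and cachexia replicate 1 the lowest of the 6 mice. The log2 fold change was -0.05 (standard error 0.22, 95% interval -0.57 to 0.46). Its sign turned, to 0.17, without control replicate 1 and, to 0.098, without cachexia replicate 1. Soat1 lies on chromosome 1 from 156424525 to 156474331, minus strand.

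The receptors themselves were slightly higher in all cachectic mice, but neither passed the threshold. Nr1h3, which encodes LXRα (chromosome 2, 91184061 to 91202834, minus strand), was at 96.4, 98.5 and 114 CPM in control mice and 132, 130.3 and 137 CPM in cachectic mice. Nr1h2, which encodes the more widely expressed LXRβ (chromosome 7, 44549616 to 44553951, minus strand), was at 89.3, 66.8 and 70.1 CPM in control mice and 101, 92.3 and 97.3 CPM in cachectic mice. For both receptors the groups did not overlap and the cachectic mice were close together. The log2 fold change was 0.37 for Nr1h3 (standard error 0.12, 95% interval 0.09 to 0.66, edgeR's Benjamini-Hochberg adjusted p = 0.0759) and 0.36 for Nr1h2 (standard error 0.14, 95% interval 0.03 to 0.69, edgeR's Benjamini-Hochberg adjusted p = 0.121). Nr1h3 passed in DESeq2 (adjusted p = 0.0342), and Nr1h2 passed in edgeR without control replicate 1, with a log2 fold change of 0.50 (adjusted p = 0.0493).

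**Figure D2:**
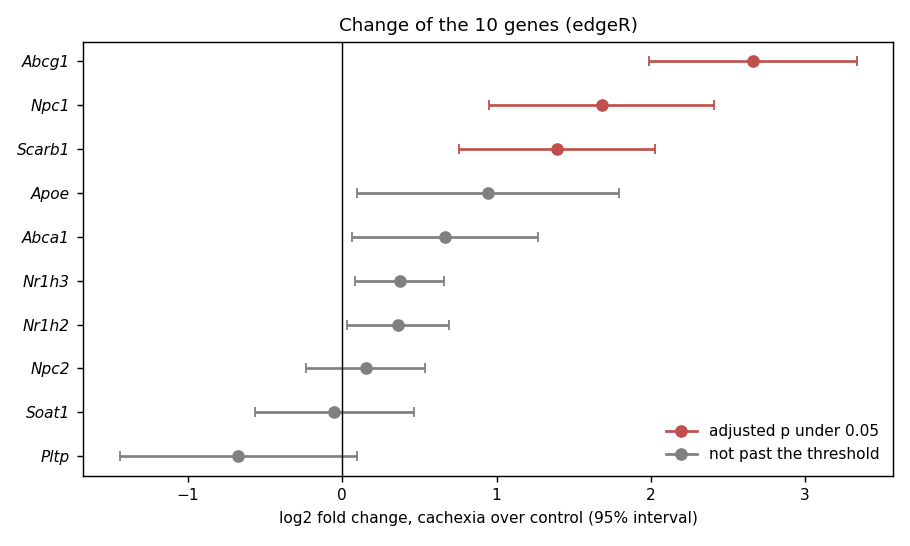
Log2 fold change of cachectic over control mice for the 10 genes (x axis, points) with the 95% interval from edgeR (bars), red where the adjusted p-value is under 0.05. The intervals of Abcg1, Npc1 and Scarb1 lie farthest above 0, and those of Npc2, Soat1 and Pltp include 0.

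Levels between genes were compared with the deposited FPKM, which divide by gene length. In control mice Apoe stood far above the others at 1705 ± 222 FPKM (SD, n = 3), and by its mean over the 6 mice it ranked 11 among the tested genes. Npc2 (77.3 ± 6.32 FPKM) and Pltp (50.4 ± 3.60 FPKM) came next in control mice, then Nr1h3 (40.4 ± 3.70 FPKM) and Abca1 (34.9 ± 6.12 FPKM), whose ranges overlap. Scarb1 (24.6 ± 0.516 FPKM) and Nr1h2 (22.2 ± 3.61 FPKM) also overlap, and Abcg1 (5.28 ± 0.659 FPKM), Npc1 (4.53 ± 0.192 FPKM) and Soat1 (2.34 ± 0.592 FPKM) closed the order with ranges apart from their neighbors. Abcg1 was thus among the 3 lowest of the 10 in control fat, below Abca1 in every control mouse.

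In cachectic mice Apoe was again on top, at 3247 ± 1423 FPKM (SD, n = 3). Below it Npc2 (85.1 ± 11.2 FPKM), Scarb1 (63.8 ± 25.9 FPKM), Abca1 (54.7 ± 17.6 FPKM) and Nr1h3 (51.7 ± 1.25 FPKM) formed a run in which each gene overlaps the next. Scarb1 thus moved up the order by its mean, to just under Npc2, though its range there overlaps those of its neighbors. Abcg1 (33.0 ± 12.7 FPKM), Pltp (31.3 ± 14.3 FPKM) and Nr1h2 (28.2 ± 1.32 FPKM) overlap likewise, and Npc1 (14.4 ± 6.66 FPKM) came next, its range apart from that of Nr1h2 but overlapping those of Pltp and Abcg1. Soat1 (2.23 ± 0.424 FPKM) was below all of them. Abcg1 exceeded Npc1 by little in control mice and by more in cachectic mice, and Soat1 remained the lowest of the 10 in both groups.

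The 3 cachectic mice did not carry the changes to the same degree. Cachexia replicate 2 had the highest level of Abca1, Apoe, Scarb1 and Npc1, with log2 ratios to the control mean (CPM plus 0.5) of 1.10, 1.44, 1.94 and 2.24. Cachexia replicate 3 was the lowest cachectic mouse for the same 4 genes, with log2 ratios of 0.17, 0.04, 0.92 and 0.83. For Abcg1 the order was different, since cachexia replicate 3 was the highest mouse, with a log2 ratio of 3.09, and cachexia replicate 1 the lowest of the cachectic mice at 1.91. The mouse with the most Abcg1 was therefore also the one with the least Pltp (log2 ratio -1.73). With 3 mice, no relation between the genes was tested.

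**Figure D3:**
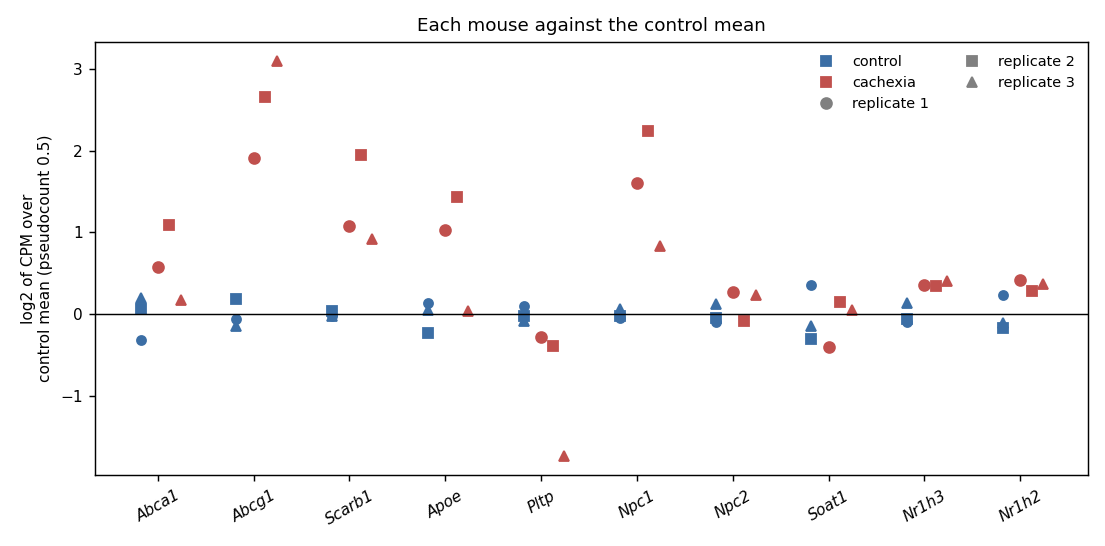
Log2 ratio of each mouse's CPM (plus 0.5) to the control mean (y axis) for the 10 genes, control mice in blue and cachectic mice in red, with the marker shape giving the replicate number. Cachexia replicate 3 (red triangle) is lowest of the cachectic mice for Abca1, Scarb1, Apoe and Npc1 and for Pltp, at -1.73, and highest for Abcg1, at 3.09.

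The genes most like each risen gene were looked for among 13723 protein-coding tested genes, by the root-mean-square distance between log2 CPM profiles centered over the 6 mice. For Abcg1 they were Pnpla7, which encodes a lysophospholipase (distance 0.213, from 21.6 to 118 CPM), and Sik1, which encodes a salt-inducible kinase (0.219, from 31.0 to 156 CPM). Those for Scarb1 were Fbxo32, the ubiquitin ligase gene also known as atrogin-1 (0.0719, from 16.9 to 45.6 CPM), and Pecam1, an endothelial adhesion molecule (0.136, from 355 to 793 CPM). For Npc1 the nearest profiles, Gm5483 (0.157) and Ofcc1 (0.158), were of genes almost without counts in control mice, with a mean of 0 and 0.038 CPM there and 1.25 and 1.31 CPM in cachectic mice. The added 0.5 CPM compresses such genes, so their likeness to Npc1 rests on a few counts.

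Around these 10 genes, 6 further lists of cholesterol genes were read by role, and the plot of genes by role shows them together. Their counts stand beside the share over all tested genes, 9.0% higher and 8.63% lower. A count near that share says nothing particular about a list. The most abundant gene of a list is, here and for the cell type markers, the one with the highest mean FPKM over both groups. Among 10 tested partners and co-regulators of LXR, 1 was higher and 2 were lower, with a median log2 fold change of -0.03. Rxra, the most abundant of the RXR genes here (44.8 and 36.2 FPKM), did not pass the threshold, at 212, 259 and 273 CPM in control mice and 209, 230 and 169 CPM in cachectic mice. Rxrb rose by a log2 fold change of 0.78 (adjusted p = 0.00876, edgeR, Benjamini-Hochberg). Rxrg fell by 1.19 on the log2 scale, just past the threshold (adjusted p = 0.0489, edgeR, Benjamini-Hochberg), and Nrip1, which encodes the corepressor RIP140, fell by 1.54. The count of lower genes in this list was 1 with library totals, the replicate block or protein-coding genes alone. It was also 1 without control replicate 1, 2 or 3 or without cachexia replicate 2. The count of higher genes was 0 without control replicate 3.

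Other genes known as LXR targets went both ways: of 15 tested, 2 were higher and 5 lower, with a median log2 fold change of -0.29. The 2 that rose were Mylip, which encodes the ubiquitin ligase IDOL, which acts on lipoprotein receptors (log2 fold change 1.43), and Mertk, which encodes a receptor for dying cells (0.85). Among the 5 that fell were the fatty acid synthesis genes Fasn (-4.34), Scd2 (-3.11) and Scd1 (-2.34) and their regulator Srebf1 (-1.79), while the remaining one, Lbp (-1.21), encodes a protein that binds bacterial lipopolysaccharide. The count of higher genes was 0 without control replicate 2 or control replicate 3, and 1 without control replicate 1 or with the replicate block. The count of lower genes was 2 without control replicate 3 or cachexia replicate 1, and 7 in DESeq2. Scd1 was the most abundant of the list, at 21874, 35043 and 36753 CPM in control mice and 3753, 7427 and 7295 CPM in cachectic mice. The fatty acid synthesis genes are therefore at the other end of the scale from Abcg1, although both are counted as LXR targets. Cyp7a1, the gene of the rate-limiting enzyme of bile acid synthesis in the liver, was at 0 in all 6 mice, which allows at most 3 counts per library by counting error.

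Of 6 tested enzymes listed for the oxysterol and bile acid routes, 2 were higher and none was lower, with a median log2 fold change of 0.06. One of the 6, Ebp, encodes an enzyme of cholesterol synthesis and did not pass (log2 fold change -0.01). Ch25h, the gene of the cholesterol 25-hydroxylase that makes an LXR ligand, was low throughout, at 0.753, 0.917 and 0.283 CPM in control mice and 2.33, 3.50 and 3.21 CPM in cachectic mice. It rose by a log2 fold change of 2.20 (adjusted p = 0.0204, edgeR, Benjamini-Hochberg), as did Cyp39a1, an oxysterol hydroxylase gene, by 0.90. Cyp27a1, the most abundant of the list, was at 71.4, 58.4 and 55.8 CPM in control mice and at 75.2, 62.8 and 64.2 CPM in cachectic mice, and did not pass. The count of higher genes in this list was 1 with no filter, at least 10 counts in every sample or the replicate block. It was also 1 without control replicate 1 or 2 or without cachexia replicate 1 or 3. Without control replicate 3 or without cachexia replicate 2 it was 0.

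Of 19 genes of intracellular cholesterol transport and ester turnover, 2 were higher and 1 lower, with a median log2 fold change of -0.08. Over all tested genes 9.0% were higher and 8.63% lower, so this list does not stand out by its counts. Stard5, which encodes a cytosolic sterol carrier, rose by 1.13 on the log2 scale. Soat2, which encodes the second cholesterol-esterifying enzyme, rose by 3.19, but only from 0.452, 0.573 and 0.113 CPM in control mice to 2.22, 3.68 and 4.72 CPM in cachectic mice. Per length, Soat2 was at 0.169 ± 0.106 FPKM in control mice and 1.56 ± 0.552 FPKM in cachectic mice (SD, n = 3 each), beside 2.34 and 2.23 FPKM for Soat1. Prelid3b, which fell by 0.53, belongs to a family that carries phospholipids rather than cholesterol in mitochondria. The most abundant gene over both groups, Scp2, which encodes a sterol carrier protein, did not pass the threshold (240 and 322 FPKM), and in control mice Lamp1 was above it (279 FPKM).

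Lipoprotein uptake and HDL handling gave 2 higher and 2 lower of 14 tested genes, with a median log2 fold change of 0.26. Apobr, a receptor gene for apolipoprotein B, fell by 0.91 on the log2 scale. Lipg, the endothelial lipase gene, rose by 1.80, just past the threshold (adjusted p = 0.0498, edgeR, Benjamini-Hochberg), and Apoa1, the gene for the main HDL protein, rose by 3.83 but reached only 2.45, 3.01 and 7.67 CPM. The count of higher genes in this list was 1 with the replicate block, RLE factors, library totals, at least 10 counts in every sample, protein-coding genes alone or without cachexia replicate 2, and 0 without control replicate 2 or control replicate 3. Cd36, a fatty acid and lipoprotein scavenger receptor gene and the most abundant of the list, did not pass (1244 and 1410.3 FPKM).

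Cholesterol synthesis and SREBP2 control was the list with the most calls, 17 lower and 0 higher of 21 tested, with a median log2 fold change of -1.24. Among those with the smallest p-values were Nsdhl (-2.15), Idi1 (-2.20), Sqle (-2.28), Hsd17b7 (-1.75) and Sc5d (-2.001), all enzymes of the pathway. Insig1, which holds SREBP in the endoplasmic reticulum and is itself a target of it, was the most abundant over both groups and in control mice, though not in cachectic mice, and fell from 227, 205 and 276 CPM to 53.1, 64.9 and 31.5 CPM, a log2 fold change of -2.24. Srebf2, which encodes SREBP2 and is named here after its value was seen, fell by 0.85 on the log2 scale. In no mouse of one group did Insig1 or Srebf2 reach the range of the other group. Over the other settings the number of lower genes in this list lay between 12 and 17. Ebp, read with the oxysterol list above, is not counted here.

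**Figure D4:**
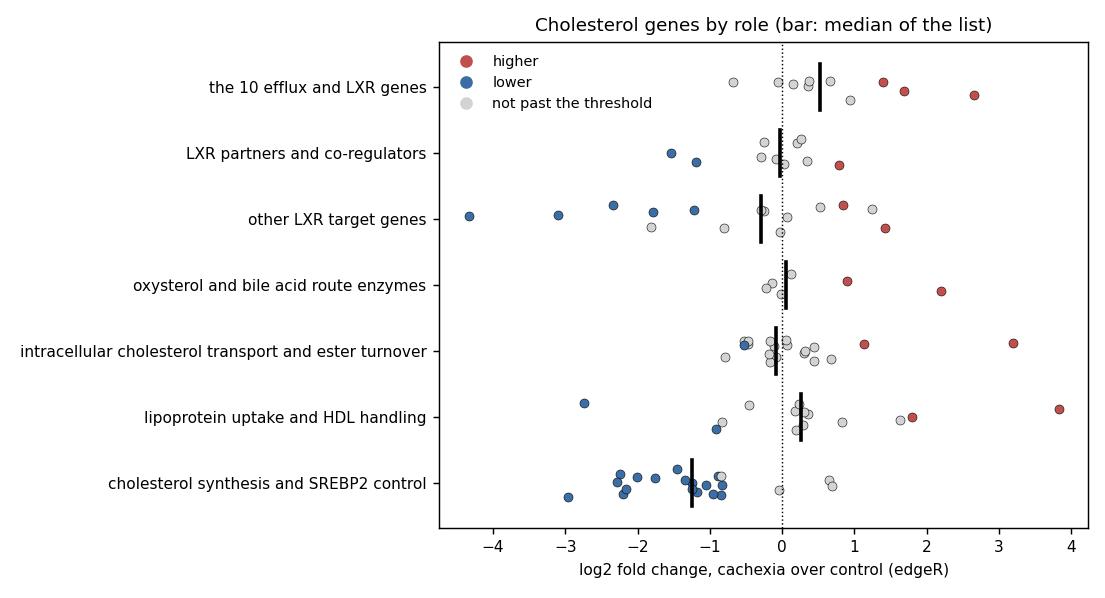
Log2 fold change of cachectic over control mice (x axis) for each tested gene of the 10 efflux and LXR genes and of 6 further lists (y axis), red where higher and blue where lower past the threshold, gray where not past it, with a black bar at each list's median. Synthesis genes lie mostly left of 0 with a median of -1.24, while the 10 efflux and LXR genes have a median of 0.52.

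Because these genes are expressed in several cell types, lists of cell type markers were read in the same mice. The counts of higher and lower markers also stand beside 9.0% higher and 8.63% lower over all tested genes. The tissue label fits the data, with Adipoq, Fabp4 and Cfd present in every mouse and Cfd the most abundant adipocyte marker, at 10880.0 and 13914 FPKM. The adipocyte markers summed to 32089, 37357 and 41301 CPM in control mice and 51999, 34029.5 and 46711 CPM in cachectic mice, and the groups overlap. Of these, Cfd gave 9045, 10637 and 10801 CPM in control mice and 17594, 12693 and 9077 CPM in cachectic mice. Fabp4 gave 6952, 7350 and 8940 CPM in control mice and 10083, 4925 and 14790 CPM in cachectic mice. The sums therefore say little about the other markers. Of 12 adipocyte markers, Cidec and Pnpla2 were higher and Lep was lower. Plin1 and Retn, the latter named after its value was seen, lay below all controls in every cachectic mouse. Neither passed the threshold. Their log2 fold changes were -1.44 and -0.60 (adjusted p = 0.0570 and 0.165, edgeR, Benjamini-Hochberg). Markers of epididymis epithelium summed to between 0.737 and 4.47 CPM per mouse, with Cst11 at 0 in all mice, and none of the 9 genes matched had enough counts for a test.

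Macrophage markers, from the cells best known for Abca1, Abcg1 and Apoe expression, overlapped between the groups as a sum. They came to 1809, 2086 and 2245 CPM in control mice and 1905, 2335 and 1609 CPM in cachectic mice. Of 16 tested, Cd163, Mertk and Cd14 were higher and Mrc1 was lower, with a median log2 fold change of -0.17, and the most abundant, Lyz2, did not pass (533 and 468 FPKM). Of 12 markers of lipid-associated macrophages none was higher and Itgax was lower, with a median of -0.27, and their sums also overlap between the groups. The sums were 8930, 13230 and 16126 CPM in control mice and 8418, 9065 and 6070 CPM in cachectic mice. Lpl alone gave 7817, 12295 and 14927 CPM and 7350, 7763 and 4912 CPM of these, so the sums say little about the other markers. Cachexia replicate 2 had both the highest macrophage sum and the highest Abca1 and Apoe, and cachexia replicate 3 had the lowest macrophage sum and the highest Abcg1. The part of macrophages in these levels was not tested.

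Endothelial markers were higher as a sum in every cachectic mouse, but not gene by gene. Their sums were 1703, 1753 and 1694 CPM in control mice and 2873, 3622 and 2539 CPM in cachectic mice, and cachexia replicate 2 was the highest and replicate 3 the lowest of the cachectic mice, as for Scarb1, Npc1, Abca1 and Apoe. Of 10 tested, 5 were higher and none lower, among them Esam (1.55), Pecam1 (1.159), Cldn5 (0.75) and Egfl7 (0.69), with Cldn5 the most abundant, and the median log2 fold change was 0.72. The part of endothelial cells in the levels of these 4 genes was not tested.

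Neutrophil and erythroid markers were far higher in cachectic mice. Neutrophil markers summed to 33.4, 51.0 and 34.6 CPM in control mice and 295, 269 and 822 CPM in cachectic mice, and cachexia replicate 3, with the highest sum, also had the highest Abcg1. Of 11 tested, 10 were higher, with a median log2 fold change of 4.95 and with S100a9 the most abundant over both groups and in cachectic mice, though not in control mice. Erythroid markers summed to 451, 252 and 275 CPM in control mice and 2856, 1334 and 2557 CPM in cachectic mice, with 6 of 6 higher, with a median log2 fold change of 2.72 and Hbb-bs the most abundant. Fibroblast and progenitor markers were lower in sum, at 6322, 5512 and 6126 CPM against 3571, 3064 and 2607 CPM, with 1 higher and 4 lower of 10. The most abundant, Dcn, did not pass (2058 ± 186 and 1976 ± 342 CPM, SD, n = 3 each), while Col3a1 and Col1a1, 2 collagen genes, fell by 3.18 and 2.61 on the log2 scale. Without these 2 genes the sums overlap, at 2739, 2972 and 2928 CPM in control mice and 3044, 2828 and 2242 CPM in cachectic mice. The part of these cells in the levels of the 10 genes was not tested.

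T and NK cell markers summed to 21.6, 14.6 and 21.9 CPM in control mice and 6.71, 16.3 and 6.42 CPM in cachectic mice, with 1 of 9 lower and Gzma the most abundant over both groups. B cell markers, led by Ighm, summed to 421, 527 and 489 CPM in control mice and to 129, 56.6 and 10.7 CPM in cachectic mice, with 1 of 8 lower. Mesothelial markers, with Upk3b the most abundant over both groups, had none of 8 past the threshold, and their sums overlap between the groups. The sums of B cell markers did not overlap between the groups and were lower in cachectic mice, as for Pltp, with cachexia replicate 3 the lowest for both. The same held for the sums of fibroblast and progenitor markers, which overlapped only without Col3a1 and Col1a1. The part of B cells, fibroblasts and progenitors in the level of Pltp was not tested.

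**Figure D5:**
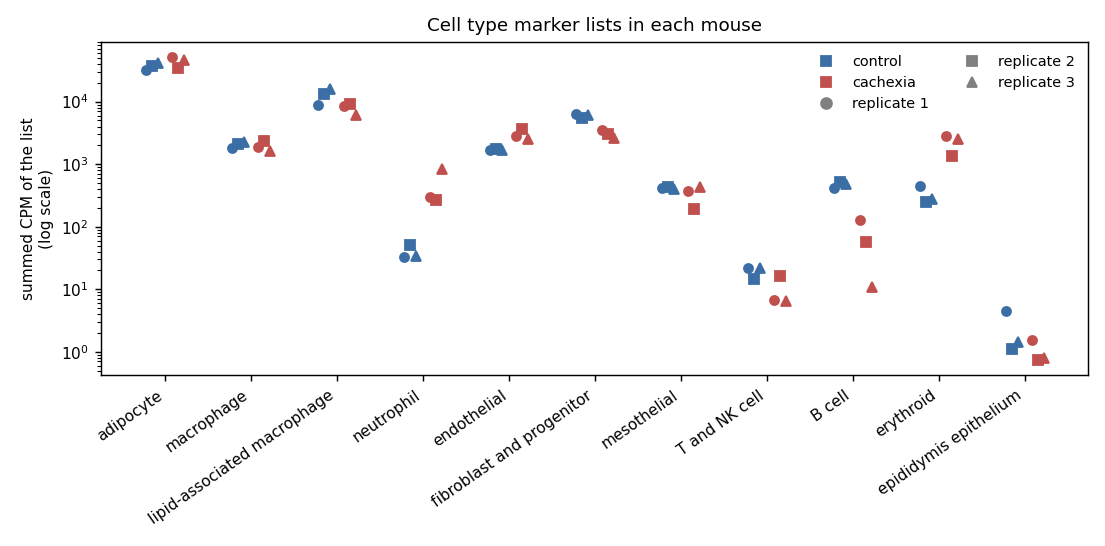
Summed CPM of each cell type marker list (y axis, log scale) in the 3 control mice (blue) and 3 cachectic mice (red), with the marker shape giving the replicate number. Macrophage sums of the groups overlap, while endothelial, neutrophil and erythroid sums are higher in every cachectic mouse than in every control mouse.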

How the data were processed

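RNA-seq of eWAT from 3 cachectic and 3 control mice was analyzed, grouped by label. The authors filtered the 150-base paired-end reads, aligned them with Hisat2 and deposited raw counts per gene from featureCounts 1.5.0-p3. The authors also deposited FPKM, computed from count and gene length. A further deposited table holds the authors' fold changes and p-values from DESeq2 1.16.1, and these, with its 8 columns of per-sample values and group means, were not used. The submitters' processing notes name mm9, but 99.8% of gene identifiers occur in GENCODE M21 (GRCm38), 98.3% of them with identical coordinates (8 of the 10 genes), so positions are given as in the files.

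Differential expression was computed from the counts with edgeR 4.0.16 in R 4.3.3 (genes kept by filterByExpr, TMM factors, quasi-likelihood test, Benjamini-Hochberg over 16003 of 54532 genes, threshold 0.05), without covariates. The biological coefficient of variation was 0.264, and total counts of 14928766 to 18855546 limit low genes. A standard error is the log2 fold change divided by the square root of F. Exact permutation tests used log2 (CPM + 0.5). The fits were tested on simulated counts, and no pair of replicates had counts as alike as sampling noise. Other settings were RLE factors, library totals, no filter, at least 10 counts in every sample, DESeq2 1.42.0, limma-voom and limma on log2 FPKM (pseudocount 1 or 0.1; limma 3.58.1), a replicate block, protein-coding genes alone, and each mouse left out. For the lists these settings were added after seeing the data.

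The genes and lists were chosen with earlier results of these data known. Named were the 10 genes, up to 6 genes of each pathway list with the smallest p-values past the threshold, up to 4 of each marker list, the most abundant gene of each list, and the 2 nearest profiles of each risen gene. Genes that overlap a named gene were added, as were a few others, among them Srebf2, Retn and Ebp. A few genes that fall under the rule above were left out of the report. Promoters are from RefSeq (GRCm38.p6).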

Additional observations from a re-analysis of the deposited data

How the results depend on the processing

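Over the 16 other settings Abcg1 passed the threshold in all, with log2 fold changes of 2.36 to 2.92, Npc1 in 15 and Scarb1 in 14, and 9 of the 10 genes had the same direction in all 16. In DESeq2, 3884 of all 16003 genes passed, against 2821 in edgeR, and 6 of the 10, with Abca1 (0.66), Nr1h3 (0.37) and Apoe (0.94) added. With each mouse left out in turn, 828 to 2339 genes passed, the lowest without control replicate 3, and 1312 passed without control replicate 2. Of the 10 genes, 1 to 4 passed, with 1 (Abcg1) without control replicate 3. The log2 fold change then ranged from 0.28 to 0.50 for Nr1h2 (called without control replicate 1), 1.01 to 1.58 for Scarb1 (lost without control replicate 2 or 3), 1.28 to 1.97 for Npc1 (lost without control replicate 3), 0.62 to 1.25 for Apoe (lowest without cachexia replicate 2, called without cachexia replicate 3), 0.39 to 0.87 for Abca1 (lowest without cachexia replicate 2), -0.92 to -0.33 for Pltp (nearest 0 without cachexia replicate 3), 0.09 to 0.26 for Npc2 (lowest without cachexia replicate 1) and -0.18 to 0.17 for Soat1, which turned to 0.17 without control replicate 1 and to 0.098 without cachexia replicate 1. The cause of these changes was not tested. Over the 16 settings, the genes higher and lower numbered 0 to 1 and 1 to 2 among LXR partners, 0 to 3 and 2 to 7 among other LXR targets, 0 to 2 and 0 among oxysterol enzymes, 1 to 4 and 0 to 1 in intracellular transport, 0 to 3 and 1 to 4 in lipoprotein uptake, and 0 to 1 and 12 to 17 in cholesterol synthesis.

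Same-numbered mice did not deviate together over all tested genes (correlations -0.003, -0.011 and 0.008). The labels do not say whether the numbers pair mice, and these correlations cannot exclude a shared batch. With a replicate block 1881 genes passed, and 3 of the 10, the same genes as without it: Abcg1 (2.59), Npc1 (1.57) and Scarb1 (1.31). Depth limits genes of a few CPM, such as Soat2, Ch25h and Apoa1.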
